A study of Arabidopsis thaliana with 8 samples.

Results

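The interaction of the ANAC096 line with abscisic acid (ABA) was measured as a difference of differences on all 8 arrays of the series. For each probe, the ABA effect in the empty vector line (ABA minus control) was subtracted from the ABA effect in the ANAC096 line (ANAC096+ABA minus ANAC096), on a log2 scale. A negative value means that ABA moved the level less upward, or further downward, in the ANAC096 line. The 4 groups held 2 arrays each, taken from the titles, and no array enters both ABA effects. Of 43603 probes, 34503 were tested, those that both arrays of some group showed well above background.

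All plants were 12-day-old Arabidopsis thaliana seedlings of cultivar Col-0, kept in liquid MS at 23 °C under 16 h of light and 8 h of darkness, and all received 30 µM dexamethasone for 60 min. The control and ABA groups carried the pTA empty vector, and the ANAC096 and ANAC096+ABA groups carried pTA-ANAC096. In the ABA and ANAC096+ABA groups, 2 µM ABA was also present for the last 30 min. The pTA vectors drive a transgene from a promoter that dexamethasone switches on, so every group contained the steroid and a pTA construct, and no group shows the ANAC096 line before induction. Whole seedlings were extracted, so fewer cells of a type and less RNA per cell cannot be told apart. The submitters call the replicates biological without saying what separated them, and give no number of independent transgenic lines. A p-value therefore weighs a difference against the scatter of these 8 arrays.

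ABA is a plant hormone that accumulates when water is short. Its receptors block a family of protein phosphatases, which frees SNF1-related kinases to phosphorylate bZIP transcription factors that bind ABA-responsive promoter elements. NAC proteins are plant transcription factors, several of which are themselves switched on by drought and ABA, and the series title describes ANAC096 as acting together with bZIP factors in dehydration responses. The interaction addresses whether the transcripts that ABA moves within minutes move differently when ANAC096 has been induced.

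Probes carry the array maker's identifiers in the scanner output, with no gene beside them, and 0 of the identifiers were in the RefSeq gene table. Genes, gene lists and the ANAC096 transcript were therefore not analysed here, and probes are described by their response.

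Of the 43603 probes, 75.07% to 75.94% exceeded background on the arrays with ABA and 77.77% to 79.84% on those without, and saturation affected 0 spots. All 8 arrays lay on 1 slide in 1 scan, with the arrays without ABA in row 1 and those with ABA in row 2, the empty vector line in columns 1 and 2 and the ANAC096 line in columns 3 and 4. A row effect or a column effect that adds the same log2 amount to every array in it cancels in the difference of differences. Each group nevertheless held its own place on the slide, so an effect of that place and the interaction cannot be told apart. The robust SD of a probe between replicates was 0.0496 on the log2 scale in ABA, 0.0675 in ANAC096+ABA, 0.0732 in ANAC096 and 0.103 in control.

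The ABA response of many probes differed between the lines, more often upward in the ANAC096 line over all called probes and more often downward among differences of at least 2-fold. In the limma fit over all 34503 probes, 14748 (42.7%) had an interaction at an adjusted p under 0.05, 8352 (24.2%) higher in the ANAC096 line and 6396 (18.5%) lower. With normexp background correction this balance turned, to 7369 higher and 7761 lower. Among interactions of at least 2-fold the lower ones prevailed, with 2143 probes (6.21%) against 534 higher (1.55%), and the lower made up 80.1% of them. With normexp the counts were 1774 lower and 186 higher, 90.5% lower, and in the authors' table they were 1523 and 300. At 4-fold the counts were 559 lower and 60 higher, and at 8-fold 184 lower and 15 higher. Counting only probes well above background in all 4 groups, these became 354 and 18 at 4-fold, and 91 and 4 at 8-fold. The median interaction of all tested probes was 0.06, the 1st percentile lay at -2.41 and the 99th at 1.24, so the lower tail was the longer one. The median standard error was 0.0967. Without ABA replicate 1, 9721 probes were called at any fold.

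**Figure D1:**
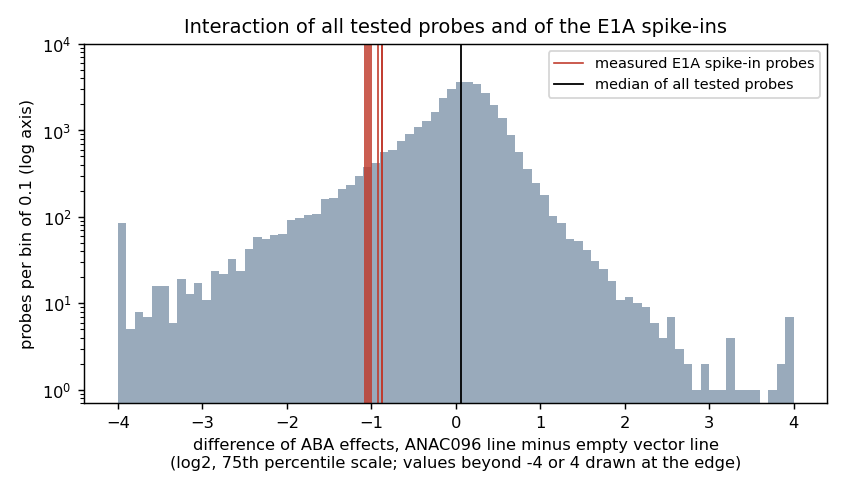
Number of probes (log axis) by interaction, the log2 difference of ABA effects on the 75th percentile scale, for all 34503 tested probes, with the median of all probes (black, 0.06) and the 7 measured E1A spike-in probes (red). The lower tail is longer than the higher one, and the spike-ins lie between -1.08 and -0.87.

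These values are relative to each array's 75th percentile, and the E1A spike-ins, the array maker's control RNAs, did not stay level on that scale. The mean log2 level of the 7 E1A probes that were well above background on every array was 0.73 and 0.50 in ANAC096, 0.33 and 0.30 in ABA, -0.04 and 0.02 in control, and -0.23 and 0.18 in ANAC096+ABA. The ANAC096 arrays were the highest, the ABA arrays lay between, and control and ANAC096+ABA overlapped. Their difference of differences was -0.97 with a standard error of 0.24, from the replicate variances, and the 7 probes gave -1.08 to -0.87 over a range of mean levels from -4.79 to 5.32. In unscaled log2 signal the spike-ins gave -0.44 and the 75th percentile of the arrays 0.53.

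Scaling to the spike-ins therefore moved the median interaction of all probes from 0.06 to 1.03 and turned the balance. On that scale 26240 probes were called higher and 937 lower at any fold, and at 2-fold 18382 higher and 626 lower. The fit there gave every probe the same spread, so these counts follow the size of the values alone. Since the scaling adds nearly the same 0.97 to every probe, the sign of an interaction of at least 2-fold was all but fixed under it. Of the 2143 lower probes, 877 (40.9%) were called lower on both scales, 595 of them at least 2-fold on both. Directions below are on the 75th percentile scale unless stated.

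The largest interactions measured on all 8 arrays belonged to probes whose replicates also lay far apart. A_84_P805005 had log2 levels of -2.16 and 0.86 in control, 5.96 and 5.15 in ANAC096, 3.93 and 2.70 in ABA, and 0.07 and 1.3 in ANAC096+ABA. It was higher with ABA in the empty vector line and lower with ABA in the ANAC096 line, and the arrays without and with ABA did not overlap in either line. Its interaction was -8.84 (457.5-fold, SE 1.46, limma adjusted p 5.3e-03), and the 16 pairings of 1 array per group gave -11.97 to -5.70. A_84_P851702 followed the same course, at -0.29 and 1.99 in control, 6.34 and 5.35 in ANAC096, 5 and 3.61 in ABA, and 0.72 and 2.46 in ANAC096+ABA. Its interaction was -7.71 (SE 1.36, limma adjusted p 6.7e-03).

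The largest interactions in the other direction lay lowest in ANAC096 and rose there with ABA. A_84_P836860 was at 0.09 and -0.65 in control, -4.27 and -3.55 in ANAC096, -1.76 and -1.11 in ABA, and 1.3 and -0.62 in ANAC096+ABA. ABA raised it in the ANAC096 line, by 4.25 (limma adjusted p 3.3e-03), while the difference of -1.15 in the empty vector line missed the threshold (limma adjusted p 2.0e-01). Its interaction was 5.40 (SE 0.93, limma adjusted p 6.1e-03). A_84_P805404 was at 5.72 and 4.73 in control, 1.83 and 2.41 in ANAC096, 3.40 and 3.91 in ABA, and 5.80 and 4.26 in ANAC096+ABA, with an interaction of 4.48 (SE 0.812, limma adjusted p 7.3e-03). Its ABA difference of -1.57 in the empty vector line missed the threshold as well (limma adjusted p 6.6e-02). Within-group SDs of these 4 probes were 0.702 to 1.26, against a median of 0.0763 among the lower probes measured on all arrays.

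Probes with closely agreeing replicates showed interactions of several log2 units too. The next 4 were chosen after their values were seen, as the largest interactions in each direction among probes with a within-group SD under 0.2. A_84_P557326 was at -2.88 and -2.90 in control, -2.26 and -2.56 in ANAC096, 0.80 and 0.92 in ABA, and -4.67 and -4.60 in ANAC096+ABA. ABA raised this probe by 3.75 in the empty vector line (limma adjusted p 4.4e-06) and lowered it by a log2 difference of -2.23 in the ANAC096 line (limma adjusted p 2.9e-05). The interaction was -5.98 (63.1-fold, SE 0.145, limma adjusted p 1.1e-05), and the line by itself differed by 0.48. A_84_P17578 behaved in the same way, at -0.15 and -0.14 in control, 0.36 and 0.60 in ANAC096, 3.41 and 3.20 in ABA, and -1.84 and -1.76 in ANAC096+ABA. Its interaction was -5.74 (53.4-fold, SE 0.144, limma adjusted p 1.1e-05). In both probes the sign of the ABA response differed between the lines.

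A_84_P174151 fell with ABA in both lines, but less far in the ANAC096 line. Its levels were -1.42 and -1.64 in control, -4.29 and -4.37 in ANAC096, -7.03 and -7.28 in ABA, and -6.08 and -5.67 in ANAC096+ABA. The ABA effects of -5.63 and -1.55 gave an interaction of 4.08 (16.9-fold, SE 0.224, limma adjusted p 9.7e-05). A_84_P18031 fell slightly with ABA in the empty vector line and rose in the ANAC096 line. It was at -5.01 and -5.10 in control, -4.77 and -4.79 in ANAC096, -5.71 and -5.66 in ABA, and -3.17 and -3.19 in ANAC096+ABA. Its interaction was 2.23 (4.69-fold, SE 0.0685, limma adjusted p 1.6e-05), from a fall of -0.63 in the empty vector line and a rise of 1.60 in the ANAC096 line.

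**Figure D2:**
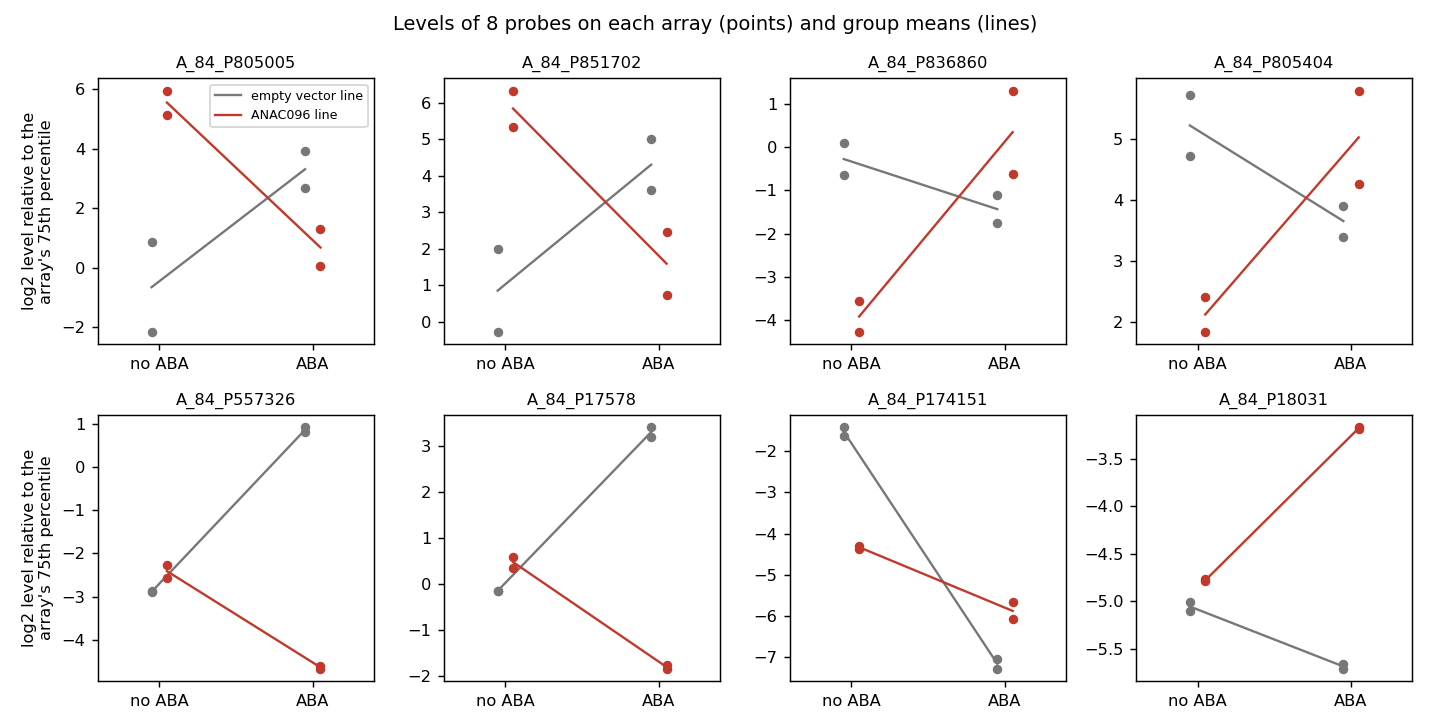
Log2 level relative to the array's 75th percentile of 8 probes without and with ABA, in the empty vector line (grey) and the ANAC096 line (red); points are arrays, 2 per group, and lines join group means. In the upper row, with within-group SDs of 0.702 to 1.26, replicates lie far apart, while in the lower row they nearly coincide and the lines still diverge.

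The probes with an interaction of at least 2-fold were then sorted by their ABA effect in each line, called raised or lowered at 2-fold and an adjusted p under 0.05. ABA raised 1454 probes (4.21%) and lowered 646 (1.87%) in the empty vector line, and raised 739 (2.14%) and lowered 1414 (4.1%) in the ANAC096 line. The sorting uses the effects of which the interaction is made, so the counts below describe its make-up.

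The largest class of lower interactions was lowered by ABA in the ANAC096 line and neither raised nor lowered in the empty vector line. It held 788 of the 2143 probes (36.8%), with a median ABA effect of 0.05 in the empty vector line and -1.68 in the ANAC096 line. Its median relative to control was 0.82 in ANAC096 and -0.87 in ANAC096+ABA. With ABA, the median level in the ANAC096 line had thus passed from above to below that of control. In 326 of these probes (41.4%) ANAC096 lay 2-fold or more above control, against 6.98% of all tested probes. In 402 (51%) the line was at least 2-fold below the empty vector line with ABA, against 3.33% of all tested probes. Both line effects are parts of the interaction, so picking lower interactions raises these shares by construction.

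A second class held 545 probes (25.4% of the lower interactions) that ABA raised in the empty vector line and that were not called at 2-fold in the ANAC096 line. With spike-in scaling it numbered 118, and the class above 289. Their medians above control were 1.52 for ANAC096, 1.66 for ABA and 1.64 for both together, and the median ABA effect in the ANAC096 line was 0.08. The line itself was at least 2-fold above control without ABA in 423 of them (77.6%), against 6.98% of all tested probes. Picking lower interactions raises this share too. All 3 medians share the control arrays. An ABA effect near 0 in the ANAC096 line follows from how the class was cut.

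A further 119 lower interactions were raised by ABA in both lines, with a median of 3.13 in the empty vector line and 1.4 in the ANAC096 line. Here too the line was above control without ABA, at least 2-fold in 118 of 119 probes, against 6.98% of all tested probes. As before, picking lower interactions raises that share. ANAC096+ABA ended at a median of 4.35 above control, against 2.80 for ANAC096 and 3.13 for ABA. The ABA response was of opposite sign in 65 probes, raised by a median of 1.37 in the empty vector line and lowered by a median of -1.63 in the ANAC096 line, which left ANAC096+ABA at 0.05 relative to control. Another 48 were lowered in both lines, further in the ANAC096 line (-3.47 against -1.41). The last 578 passed 2-fold in neither line but did so in the difference, with medians of 0.59 and -0.70.

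Higher interactions were fewer and dimmer. The largest class among them, 235 of 534 probes (44%), passed 2-fold in neither line, with medians of -0.62 in the empty vector line and 0.55 in the ANAC096 line. Next were 168 probes (31.5%) lowered by ABA in the empty vector line and not called in the ANAC096 line, a class that numbered 50 with normexp background correction. Their medians against control were -1.07 for ANAC096, -1.4 for ABA and -1.12 for both together, so that the 3 groups stood at similar distances below control. ABA raised a further 20.0% of the 534 in the ANAC096 line and neither raised nor lowered them in the empty vector line (median 1.29, against -0.06 in the empty vector line), and 7 were lowered in the empty vector line and raised in the ANAC096 line.

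**Figure D3:**
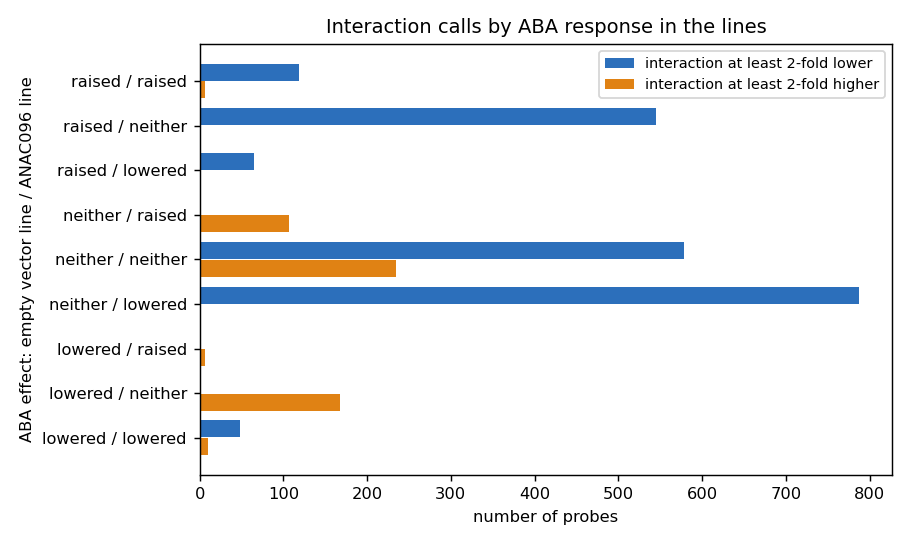
Number of probes with an interaction of at least 2-fold, lower (blue) or higher (orange), by the ABA effect in the empty vector line and in the ANAC096 line. The class neither / lowered holds 788 lower interactions and the class raised / neither 545.

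Seen from the other side, the same probes show how the line effect changed with ABA. Against control, ANAC096 was 2-fold or more higher at 2410 probes (6.98%) and lower at 839 (2.43%), and with ABA at 1381 (4%) and 1150 (3.33%) against the ABA group. Of the lower interactions, 837 (39.1%) were higher in the line without ABA and not called with it, with medians of 1.65 and 0.03. A further 509 (23.8%) were lower in the line only with ABA at 2-fold, with medians of 0.16 and -1.46, and 119 changed from higher (1.55) to lower (-1.53).

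Because the ABA effects of the lines share no array, probes picked by their ABA effect in one line could be followed in the other. The 1454 probes raised in the empty vector line had a median effect of 1.5 there and of 0.61 in the ANAC096 line (quartiles 0.11 and 1.05), where the median of all probes was 0. Of them 1152 (79.2%) had a positive effect in the ANAC096 line, against 49.8% of all probes. The 113 probes raised at least 8-fold, with a median of 3.62, had a median of 1.37 in the ANAC096 line. Scaled to the spike-ins, the 1454 had medians of 1.17 in the empty vector line and 1.25 in the ANAC096 line. The lower median in the ANAC096 line was thus gone, but the medians of all probes were -0.4 and 0.64 in these lines. On that scale 91.75% of the 1454 had a positive effect in the ANAC096 line, against 90.97% of all probes. For the 113 probes the median there remained lower in the ANAC096 line, at 2.01 against 3.29. Picking by a measured value makes a smaller effect elsewhere likelier.

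Probes lowered by ABA in the ANAC096 line had a median effect near that of all probes in the empty vector line. On the 75th percentile scale the 1414 probes had a median of -1.5 in the ANAC096 line. Their median was -0.21 in the empty vector line (quartiles -0.75 and 0.24), where the median of all probes was -0.07. There 63.4% had a negative effect, against 59.5% of all probes. Part of the set did respond: 238 of the 1414 were also called lowered in the empty vector line, against 1.87% of all tested probes. Another 65 were called raised there, against 4.21% of all tested probes. The 130 probes lowered at least 8-fold, with a median of -3.77, had a median of -0.28 in the empty vector line. With spike-in scaling the 1414 had medians of -0.86 in the ANAC096 line and -0.54 in the empty vector line, where all probes had -0.4, and 78.6% were negative there against 83.6% of all probes. The 739 probes raised in the ANAC096 line differed from this: their median was 1.27 in that line and 1.15 in the empty vector line, and 90.9% had a positive effect there, against 40.5% of all probes. With spike-in scaling the 2 medians of the 739 lay further apart, at 1.92 in the ANAC096 line and 0.83 in the empty vector line. On that scale 81.6% were positive in the empty vector line, against 16.4% of all probes. The 646 probes lowered in the empty vector line kept a median of -0.72 in the ANAC096 line, against -1.28 where they were picked. The spike-in scale shifted this median to -0.06, against 0.64 for all probes. Whether these sets differ from each other was not tested.

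**Figure D4:**
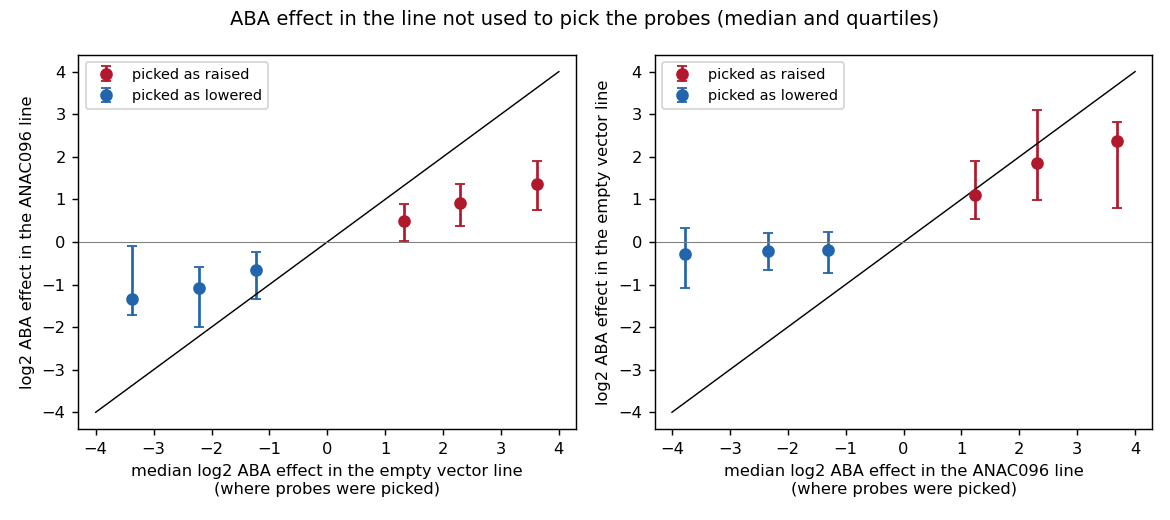
Median log2 ABA effect, with quartiles as bars, in the line not used to pick the probes, against the median in the line where they were picked at 2 to 4-fold, 4 to 8-fold and at least 8-fold; the diagonal marks equal effects. On the 75th percentile scale, the medians of probes lowered in the ANAC096 line stay near 0 in the empty vector line (right, blue), from -0.19 to -0.28.

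**Figure D5:**
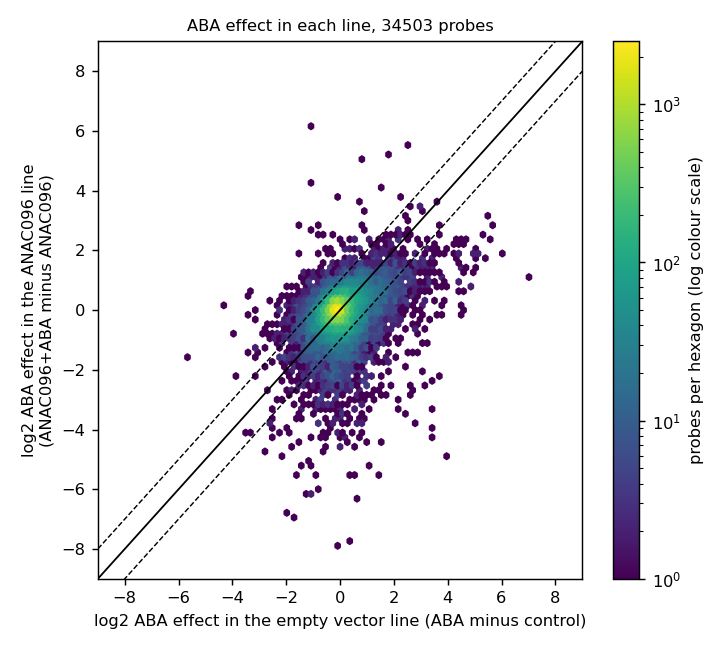
Log2 ABA effect in the ANAC096 line against that in the empty vector line for all 34503 tested probes, as counts per hexagon on a log colour scale; the solid line marks equal effects and the dashed lines a 2-fold interaction. More probes lie beyond the lower dashed line (2143 called) than beyond the upper one (534 called).

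Across the 34503 probes the ABA effects of the lines correlated at Pearson r 0.32 and Spearman rho 0.23, as a description over probes that share arrays, which are not independent replicates.

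An interaction on the log2 scale asks whether fold changes multiply, and a probe can fall short of that while its signal still rises by at least the sum of the single rises. The same contrast was therefore fitted on the linear signal, divided by each array's 75th percentile and by the probe's mean. Over all 34503 tested probes the linear fit called 9487 higher and 5747 lower at any fold. Of the 2143 lower probes, 1900 (88.7%) were called lower on the linear scale too and 100 higher, and of the 534 higher probes 505 (94.6%) were higher and 0 lower. The scale mattered most for probes raised by ABA in both lines. Among these 410 probes, the log2 fit called 225 lower and 38 higher, while the linear fit called 23 lower and 302 higher. In the 979 probes raised in the empty vector line and not called at 2-fold in the ANAC096 line, 878 were lower on the log2 scale and 632 lower and 60 higher on the linear scale. For the 65 probes with opposite responses, all were lower on both scales. Of 1111 probes lowered in the ANAC096 line alone at 2-fold, 976 were lower on the log2 scale and 909 on the linear scale.

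The difference of differences from the replicate 1 arrays and that from the replicate 2 arrays correlated at Pearson r 0.77 and Spearman rho 0.77 over the 33619 probes with a value on every array, as a description across probes. Where a probe had 2 spots on the array, the median difference between the interactions of its spots was 0.12 on the log2 scale for lower, 0.15 for higher and 0.1 for all tested probes.

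Both kinds of interaction made up a larger share of dim probes than of bright ones, and higher ones were nearly lacking among the brightest. The filter favours this by construction. A probe dim in most groups was tested only if some group lay well above background, and such a probe is likelier to show an interaction. From -8 to -6 in mean log2 level, 349 of 3250 probes were lower and 114 higher, and at or below -8, 48 and 32 of 220. Among probes with a mean log2 level from -6 to -4, 408 of 4474 were lower (9.12%) and 157 higher (3.51%). From 0 to 2, 372 of 7450 were lower (4.99%) and 16 higher (0.215%), and above 2 the counts were 179 lower and 3 higher of 3403. Of the lower interactions 1694 (79%) and of the higher 385 (72.1%) were well above background on all 8 arrays, against 90.2% of all tested probes. The interaction of the others has no measured size in at least 1 group. Among them, 114 lower interactions were above background on both arrays in the ANAC096 group only, of 337 tested probes with that pattern (33.8%). For the control group only, there were 50 higher interactions of 588 tested probes (8.5%). The level bins above include such probes, whose mean level is lowered by the groups at background. Of the 31117 probes above background on all 8 arrays, 5.44% were lower and 1.24% higher, and these were not binned by level.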

How the data were processed

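The deposited scanner files hold linear intensity values of single spots, extracted by Feature Extraction 10.7.1.1 on array design 031025, per the file headers. They also deposited a table of log2 values, which quantile normalization of the log2 median signals returned within 5.0e-09, with column medians of 10.26 to 10.27. That table served as an alternative.

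Log2 of the processed signal minus the array's 75th percentile was averaged over the spots of a probe, leaving out 1319 control spots and 376 to 1230 outlier spots per array. Of the tested probes, 884 lacked a value on at least 1 array and were fitted on the others. A further 136 had no value in a group and were dropped. limma 3.58.1 in R 4.3.3 (lmFit, eBayes) was fitted to the 4 group means of all 8 arrays, with 4 residual and 2 prior degrees of freedom, and p-values were adjusted by Benjamini-Hochberg over all 34503 probes at 0.05. The number of arrays limits the precision. For a single comparison of 2 arrays against 2, the smallest two-sided p of an exact permutation is 0.33. The fit was tested on simulated data with known changes.

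The named probes are the 2 most negative and 2 most positive interactions among called probes that exceeded background on all 8 arrays and had 1 sign in all 16 pairings. Fixed gene lists were not analysed here. The comparison, the lists and the rules were chosen with earlier results of these data known. The main fit did not pair arrays by replicate number. Deviations of same-numbered arrays from their group means correlated at -0.09 to 0.06 over the 6 pairs of groups. Such a correlation across probes cannot settle whether same-numbered arrays belong together. Alternatives were normexp correction (on median signals, since mean signals were not used here), the authors' table, other scalings and filters, an intensity trend, a replicate block, the linear scale and leaving out each array.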

Additional observations from a re-analysis of the deposited data

Results flagged for a closer look

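The interaction contrast is itself a test of the difference, so each interaction past the threshold is listed here. There were 2143 probes with an interaction of at least 2-fold lower and 534 of at least 2-fold higher in the limma fit. The named probes with widely spaced replicates had interactions of -8.84 (A_84_P805005), -7.71 (A_84_P851702), 5.40 (A_84_P836860) and 4.48 (A_84_P805404). Those with closely spaced replicates had -5.98 (A_84_P557326), -5.74 (A_84_P17578), 4.08 (A_84_P174151) and 2.23 (A_84_P18031). The E1A spike-ins, which are outside the tested probes, had a difference of differences of -0.97 on the 75th percentile scale. Scaling to the spike-ins changed the counts of lower and higher interactions, but that fit also gave every probe the same spread. The part of the shift alone in those counts was not tested.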

How the results depend on the processing

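The 2143 lower interactions of at least 2-fold stayed between 1523 and 2279 under the log2 alternatives that keep all 8 arrays, except spike-in scaling, which gave 626. The 534 higher ones numbered 186 with normexp correction (with 1774 lower), 300 in the authors' table and 18382 with spike-in scaling. At any fold, spike-in scaling called 27177 probes, and normexp correction turned the balance to 7369 higher and 7761 lower. Leaving out 1 array in turn gave 9721 to 15742 probes at any fold, the lowest without ABA replicate 1, 1967 to 2482 lower and 508 to 572 higher at 2-fold. The class of lower interactions raised only in the empty vector line (545) became 118 with spike-in scaling and 507 to 677 without 1 array, and the class lowered only in the ANAC096 line (788) became 289 and 737 to 834. The 168 higher interactions lowered only in the empty vector line became 50 with normexp correction, 73 in the authors' table, 98 among probes above background on all 8 arrays, 1302 with spike-in scaling and 152 to 195 without 1 array. The cause of these changes was not tested. The replicate block gave 13718 probes at any fold, 2108 lower and 530 higher at 2-fold, and changed no named call. The 8 named probes kept their direction under all 18 alternatives. All kept their call, with limma adjusted p of at most 0.0297 on the log2 scale, except A_84_P836860, which missed it on the linear scale (2.74, adjusted p 0.0833). Probes below background in a group limit the size of 449 lower and 149 higher interactions.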

Other observations

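In a minority of the interactions of at least 2-fold, replicates differed along the course of the interaction itself. Among lower interactions measured on all 8 arrays, 301 of 1694 (17.8%) had control 1 below control 2, ANAC096 1 above ANAC096 2, ABA 1 above ABA 2 and ANAC096+ABA 1 below ANAC096+ABA 2, against 1629 of 17418 probes not called (9.35%). The opposite order of all 4 pairs was found in 50 of 385 higher interactions (13%) and in 5.49% of the probes not called. Of 17 lower interactions with a within-group SD over 0.5, 13 had the first order, and of 4 such higher ones 3 had the second. Among 150 probes not called with an SD over 0.5, 18 had the first order and 8 the second. A_84_P805005 and A_84_P851702 were among the 13, and A_84_P836860 and A_84_P805404 showed the second. These orders were noticed in the data and given no test.

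Few probes had the profile of a named probe. Of 1624 probes measured on all 8 arrays that spanned at least 2 log2 units, 13 others followed A_84_P805005 at a Pearson r of at least 0.95 over the 8 arrays, and 10 followed A_84_P557326. All of these had an interaction of at least 2-fold lower, a direction that follows from picking them by their course over the same 8 arrays. The mean processed signal of the negative-control spots was 11.7 to 13.5 units on the arrays with ABA and 7.83 to 10.8 on those without, and its part in the interactions of dim probes was not tested.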
